A study of Mus musculus with 89 samples.

Results

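Erysipelotrichales is an order of gut bacteria within the Firmicutes. In the deposited 16s rRNA gene time course, 10 sequence variants were placed in this order and also given a genus, namely 5 Turicibacter, 3 Dubosiella, 1 Merdibacter and 1 Erysipelatoclostridium variant. They were taken by name from the taxonomy table, without use of any abundance, and are 10 of 14 Erysipelotrichales variants, of 434 variants with a taxonomy and of 4065 variants in the count table. Variants are numbered within a genus from the most to the least abundant, and animals from 1 to 13 in the order of the numbers in the column names.

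Samples were fecal pellets of male C57Bl/6j mice that were to be injured at 8 to 10 wk of age. Surgery was a controlled cortical impact (CCI, a brain contusion made by a piston on the exposed dura, 7 mice) or a sham operation (craniotomy without impact, 6 mice). Before surgery, all mice, shams included, had their bowel flushed with polyethylene glycol, were inoculated with a pool of cecal contents from donor mice, and shared soiled bedding between cages. From surgery on, sham and CCI mice lived in separate cages and exchanged bedding only with their own kind. The columns of the count table carry an animal number and a collection time but no injury group, so sham and CCI mice were pooled and the effect of injury was not analysed here. Of 91 columns, 65 were used, from 13 animals at pre-injury, 1 d, 2 d, 7 d and 28 d (4 wk). Animals that shared a cage exchange bacteria, and animal, cage and injury group cannot be told apart in these columns.

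Turicibacter are spore-forming anaerobes of the small and large bowel, known in mice for links to host bile acids, lipids and serotonin. Dubosiella is a genus first described from the mouse intestine and is a common member of the laboratory mouse flora. Erysipelatoclostridium and Merdibacter are low-abundance anaerobes of the gut and feces, the former with species known from the human bowel. Sequencing of the 16s rRNA gene gives each taxon's share of the reads and not the number of bacteria, and a bacterial genome often holds several copies of this gene, which may differ by a few bases.

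Columns held 10266 to 201686 reads (median 79026). A taxon with no reads in a column could still have had up to 3 reads' worth, which is 0.00149% of the deepest and 0.0292% of the shallowest column, counting error only. Amplified reads without molecular identifiers are not independent molecules, so intervals given here cover counting error alone.

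The 10 variants held 9.17% of all reads. Turicibacter alone held 7.14% (397094 reads) and was detected in all 65 columns. Dubosiella held 2.01% (111729 reads) and was detected in 60 columns. Merdibacter (622 reads, 29 columns) and Erysipelatoclostridium (401 reads, 21 columns) were rare. The 4 Erysipelotrichales variants without a genus added 0.0751% of reads, so that nearly all of the order's reads belonged to Turicibacter and Dubosiella.

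By sequence, the named variants formed tight clusters. The Turicibacter variants were 439 bases long, and variants 2, 3, 4 and 5 each differed from variant 1 by a single substitution (A125G, C394T, G101A and G388A, in the same order, with positions counted from 1 at the first base of the deposited variant). The Dubosiella variants were 438 bases long. Dubosiella variant 2 differed from variant 1 by G118C, C120T and C123T, and variant 3 by C276T. Between the 4 genera, identity was far lower, from 81.0% (Merdibacter and Erysipelatoclostridium) to 87.4% (Dubosiella and Merdibacter). The bacterial sequences themselves are not shown.

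Turicibacter differed between animals by orders of magnitude. Over all 65 columns it ranged from 0.0236% to 20.7% of reads (median 6.61%), exceeding 10% in 23 columns and lying below 0.1% in 10. In animal 7 it was 20.0% at pre-injury, 16.7% at 1 d, 16.9% at 2 d, 15.2% at 7 d and 11.6% at 28 d. In animal 9 it was 15.6%, 19.3%, 15.7%, 14.2% and 13.9% at the same times. These 2 animals were high at every collection.

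Animal 8 was at the other end throughout. Its Turicibacter level was 0.0447% at pre-injury, 0.0547% at 1 d, 0.0518% at 2 d, 0.0303% at 7 d and 0.0236% at 28 d, the last from 32 reads (95% Wilson interval 0.0167% to 0.0334%). Animal 10 was low as well, at 0.0434%, 0.360%, 0.124%, 2.09% and 0.227% in the same order. None of the collections of these 2 animals reached the lowest value of animals 2, 5, 7, 9 or 12.

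Other animals had very unlike levels at different collections. In animal 1, Turicibacter was 0.956% at pre-injury, 0.113% at 1 d, 0.121% at 2 d, 0.0866% at 7 d and 14.97% at 28 d. In animal 4 it was 9.18%, 0.0459%, 1.32%, 0.177% and 20.5%. In animal 3 it was 16.0%, 3.83%, 0.230%, 0.150% and 19.1%. In each of these 3 animals the highest level was at 28 d, and it was 173, 447 and 127 times the lowest level of the same animal, for animals 1, 4 and 3. Animal 6 ran the other way, from 7.49% at 1 d to 0.0714% at 7 d and 0.0654% at 28 d.

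**Figure D1:**
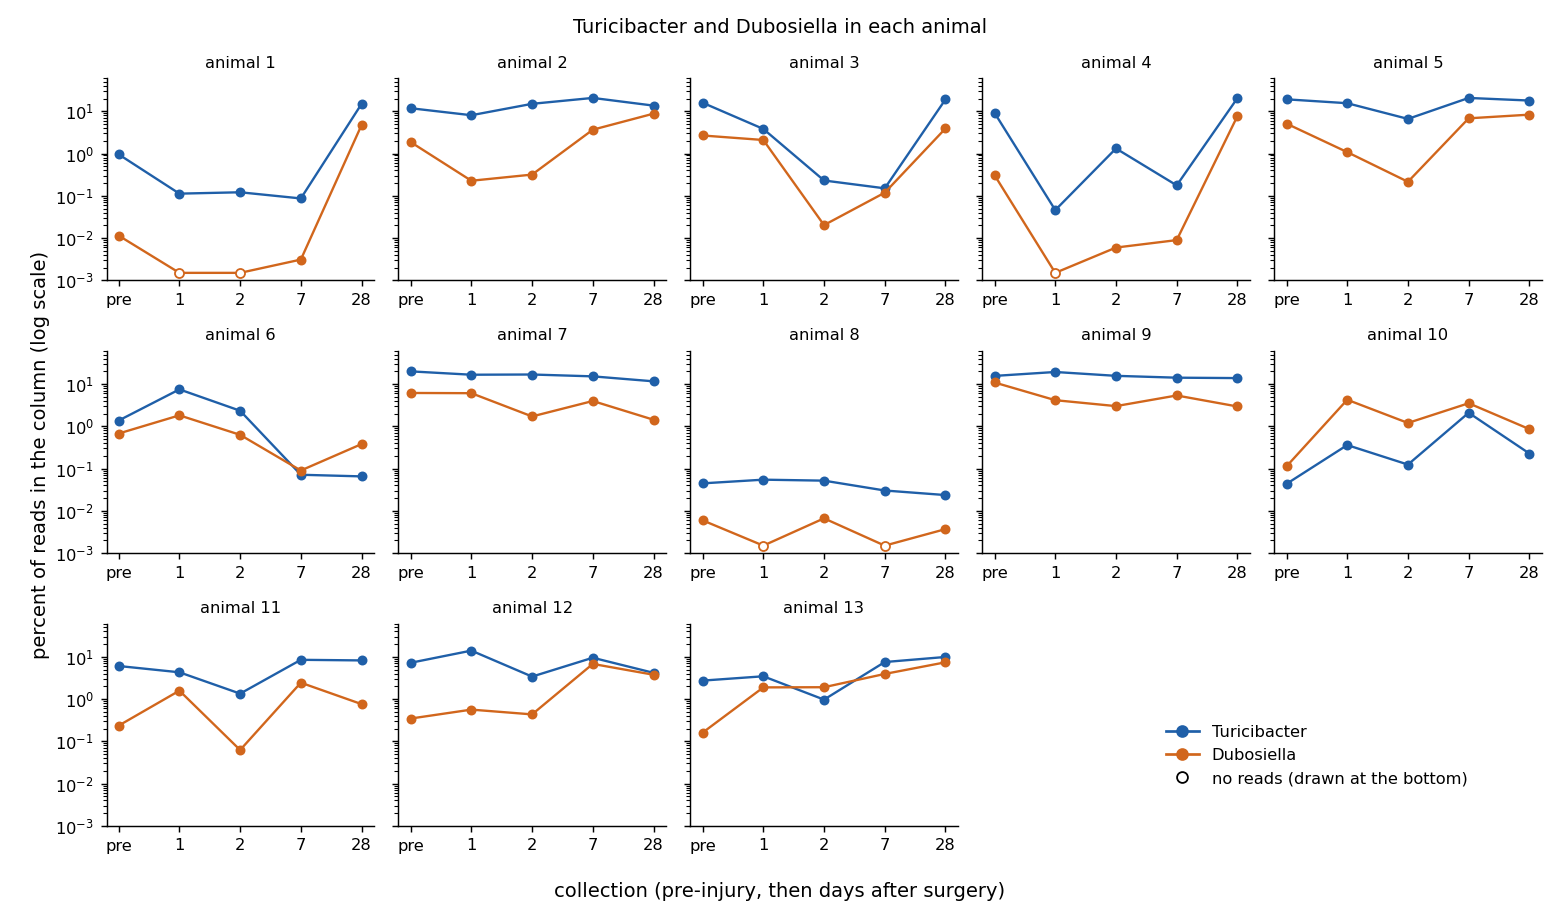
Percent of reads (log scale) of Turicibacter and Dubosiella in each of the 13 animals at the 5 collections, 1 point per column; open points had no reads and are drawn at the bottom. Animals 7 and 9 stay above 10% Turicibacter at all collections, animal 8 stays at or below 0.0547%, and animals 1, 3 and 4 lie at or below 0.177% at 7 d and are highest at 28 d.

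Dubosiella also differed widely between animals. It ranged from 0% to 10.9% of reads (median 1.20%), with 11 columns over 5% and 15 columns under 0.1%. In animal 9 it was 10.9% at pre-injury, 4.16% at 1 d, 3.01% at 2 d, 5.38% at 7 d and 2.95% at 28 d. In animal 1 it was 0.0114% at pre-injury, 0% at 1 d and 2 d, 0.00309% at 7 d (3 reads) and 4.72% at 28 d. In animal 4 it was 0.308%, 0%, 0.00596%, 0.00894% and 7.70%. Animal 8 had no more than 10 Dubosiella reads in any column, and none at 1 d and 7 d.

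Animal 10 combined low Turicibacter with moderate Dubosiella. Its Dubosiella level was 0.113% at pre-injury, 4.26% at 1 d, 1.20% at 2 d, 3.52% at 7 d and 0.859% at 28 d, above its Turicibacter level at all 5 collections. Over the whole set, Dubosiella exceeded Turicibacter in 8 columns.

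Tested across the table, most members differed between animals. With collection time in the model, 9 of the 10 variants differed among animals (edgeR's quasi-likelihood test with Benjamini-Hochberg adjustment; adjusted p from 0.000115 for Turicibacter variant 1 to 0.0136 for Dubosiella variant 1), while Dubosiella variant 3 did not pass (adjusted p = 0.155). Of all 411 variants tested, 57.2% passed. At genus level all 4 genera passed, with adjusted p = 0.00012 for Turicibacter, 0.00678 for Dubosiella, 0.000742 for Merdibacter and 0.00678 for Erysipelatoclostridium (edgeR's quasi-likelihood test with Benjamini-Hochberg adjustment), against 57.7% of 52 genera. With columns thinned to 10000 reads, Merdibacter and Erysipelatoclostridium no longer met the minimum for testing, and Turicibacter and Dubosiella both passed, against 64.9% of the 37 genera then tested. This test takes the 5 collections of an animal as its replicates.

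The share of variation that went with animal was higher for the abundant members than for most genera. Of the variation in log2 percent of reads, 67.3% went with animal and 2.99% with collection time for Turicibacter. By its animal share, Turicibacter ranked 3rd of 52 genera. For Dubosiella 62.1% went with animal and 8.64% with time (rank 5). The shares that went with animal were 52.1% for Merdibacter and 32.6% for Erysipelatoclostridium. The median over the 52 genera was 36.4% for animal and 6.54% for time. These shares were not corrected for the numbers of animals and collection times. Even with no effect, some variation would go with each, and more with animal, because animals outnumber collection times. The animal and time shares of a genus therefore cannot be compared with each other. These shares are a description, and no test was made of the rank.

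**Figure D2:**
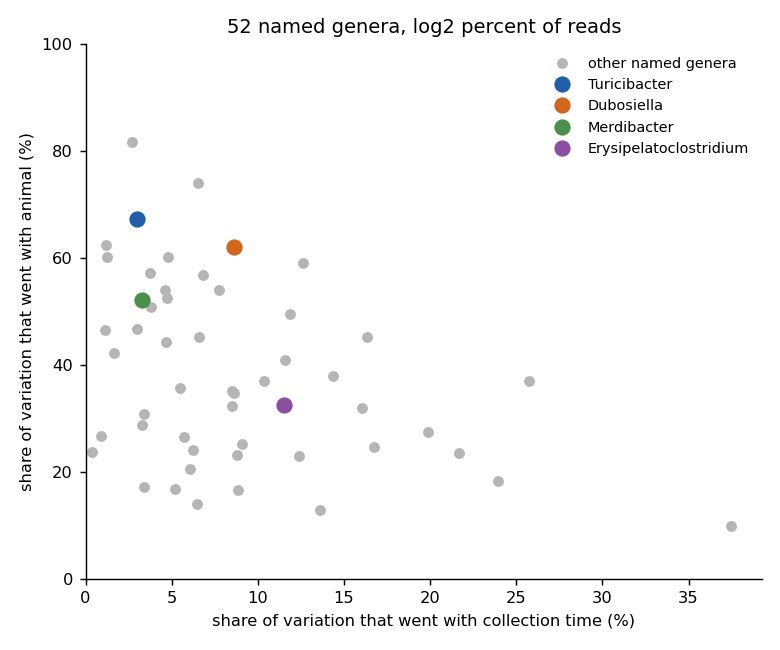
Share of the variation in log2 percent of reads that went with animal (vertical axis) and with collection time (horizontal axis). There is 1 point for each of 52 named genera. Shares are not corrected for the numbers of animals and collection times, so the axes cannot be compared with each other. Turicibacter (67.3% with animal) and Dubosiella (62.1%) lie near the top, and Erysipelatoclostridium (32.6%) lies below the median of 36.4%.

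Over collection times, median Turicibacter was 7.25% at pre-injury (0.0434% to 20.0%), 4.32% at 1 d (0.0459% to 19.3%), 1.35% at 2 d (0.0518% to 16.9%), 7.55% at 7 d (0.0303% to 20.7%) and 11.6% at 28 d (0.0236% to 20.5%). The median was lowest at 2 d and highest at 28 d, and the ranges overlapped almost entirely. Within animals, Turicibacter at 2 d was lower than at pre-injury in 8 of 13 and at least 4-fold lower in 4, and it was at least 4-fold higher in 0. The fitted log2 fold change was -0.15 ± 0.72 (SE) at 1 d, -1.02 ± 0.72 at 2 d, 0.00 ± 0.70 at 7 d and 0.88 ± 0.72 at 28 d (n = 13 animals), and none passed (edgeR's quasi-likelihood test with Benjamini-Hochberg adjustment, adjusted p = 0.995, 0.553, 0.997 and 0.700). Without animal 1 the value at 28 d was 0.32, and without animal 3 that at 2 d was -0.66.

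Median Dubosiella was 0.347% at pre-injury (0.00596% to 10.9%), 1.59% at 1 d (0% to 6.09%), 0.318% at 2 d (0% to 3.01%), 3.52% at 7 d (0% to 6.82%) and 3.77% at 28 d (0.00369% to 8.80%). Medians were above pre-injury at 1 d, 7 d and 28 d, with overlapping ranges. Within animals, however, Dubosiella was lower than at pre-injury in 8 of 13 at 1 d and in 7 of 13 at 7 d. At 28 d, 9 of 13 animals were above their own pre-injury level, 6 of them at least 4-fold, and 1 animal was at least 4-fold lower. The fitted log2 fold change was -0.05 ± 0.87 (SE) at 1 d, -1.35 ± 0.98 at 2 d, 0.55 ± 0.98 at 7 d and 2.46 ± 1.11 at 28 d, and none passed (edgeR's quasi-likelihood test with Benjamini-Hochberg adjustment, adjusted p = 0.995, 0.553, 0.714 and 0.163). At 7 d it was 0.26 without animal 11, 0.0930 without animal 12 and 0.87 without animal 3. The value at 28 d depended on the method. It was 2.79 with an adjusted p of 0.00633 by DESeq2, 0.84 without the animal as a replicate block, and 1.46 and 1.62 by edgeR without animals 1 and 4, in which Dubosiella was at most 0.308% up to 7 d. Over all alternatives the adjusted p at 28 d ranged from 0.00633 to 0.785.

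**Figure D3:**
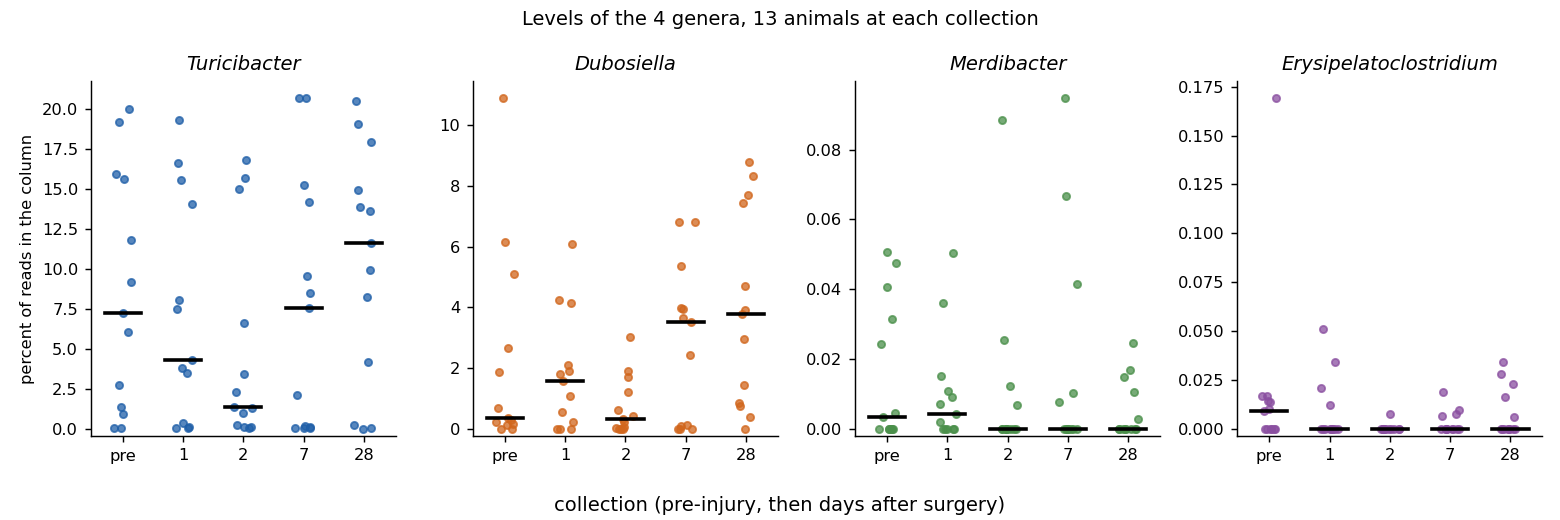
Percent of reads of the 4 genera at each collection, 1 point per animal with the median as a bar; each panel has its own linear axis. Median Turicibacter is 1.35% at 2 d and 11.6% at 28 d, median Dubosiella is 0.347% at pre-injury and 3.77% at 28 d, and Merdibacter and Erysipelatoclostridium stay under 0.17%, yet single animals span each panel.

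Merdibacter did not exceed 0.0949% in any column and was found in 7 animals at pre-injury, 8 at 1 d, 4 at 2 d, 5 at 7 d and 5 at 28 d. Animal 3 had 0.0474% at pre-injury, 0.0505% at 1 d, 0.0886% at 2 d, 0.0949% at 7 d and no reads at 28 d. Animal 6 had Merdibacter at all 5 collections (0.00694% to 0.0668%), and animals 4 and 11 at none. No change from pre-injury passed (edgeR's quasi-likelihood test with Benjamini-Hochberg adjustment, adjusted p = 0.941, 0.553, 0.821 and 0.946 at 1, 2, 7 and 28 d).

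Erysipelatoclostridium was found in 7 animals at pre-injury, 4 at 1 d, 1 at 2 d, 4 at 7 d and 5 at 28 d. Its highest level, 0.169% (117 reads), was in animal 10 at pre-injury, and its only column at 2 d was that of animal 3 with 6 reads. The fitted log2 fold change at 2 d was -4.36, short of the threshold (edgeR's quasi-likelihood test with Benjamini-Hochberg adjustment, adjusted p = 0.0528, unadjusted p = 0.00203). It passed without the replicate block (adjusted p = 0.0209) and when animal 3 (0.0386) or animal 12 (0.0343) was left out, and the adjusted p ranged from 0.0209 to 0.195 over all alternatives. Without animal 3 no column at 2 d had reads, so that pass is a comparison with a count of 0. With 1 column and 6 reads at 2 d, the size of this change is not well determined.

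No member variant passed the threshold against pre-injury at any time, at the same rate as the whole table at 1 d, 2 d and 7 d (0% of 411 variants each) and against 2.92% at 28 d. By unadjusted p below 0.05, 0, 2, 1 and 3 of the 10 members were below at 1, 2, 7 and 28 d, as were 9, 24, 38 and 55 of the 411 variants (2.19%, 5.84%, 9.25% and 13.4%). DESeq2 called 0, 1, 1 and 4 members, against 0.73%, 2.19%, 3.64% and 9.73% of all variants to which it gave an adjusted p (411 at 1, 2 and 28 d and 275 at 7 d, where 8 of the 10 members had one). These were Turicibacter variant 4 at 2 d and 7 d, and the 3 Dubosiella variants with Turicibacter variant 5 at 28 d. Without a filter on low counts, edgeR called 1 member at 28 d, Dubosiella variant 1, against 0.404% of 3217 variants. The median log2 fold change of the members was -0.72 at 1 d, -1.97 at 2 d, -0.31 at 7 d and 1.25 at 28 d, beside -0.12, -0.05, -0.35 and 0.07 over all variants tested. At 2 d all 10 members had a negative value and at 28 d 9 had a positive value. All 10 members were counted in the same columns, and these are not independent counts. A minor variant can also be dropped by the variant caller where its genus has few reads. At 2 d the values of Turicibacter variants 1 to 5 were -0.99, -1.39, -2.28, -4.27 and -3.05. Those of Dubosiella variants 1 to 3 were -1.24, -1.64 and -2.28. The part of the caller in the larger values of minor variants, and so in the median, was not tested.

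At genus level, 0% of 52 genera passed by edgeR at 1 d and 2 d, 11.5% at 7 d and 1.92% at 28 d, with none of the 4 genera among them. DESeq2 called Dubosiella at 28 d (adjusted p = 0.00633). For any difference among the 5 collections, 0 of 10 member variants passed, against 4.62% of all variants, and 0 of 4 genera, against 9.62% of genera (edgeR's quasi-likelihood test with Benjamini-Hochberg adjustment, adjusted p = 0.505 for Turicibacter, 0.142 for Dubosiella, 0.821 for Merdibacter and 0.143 for Erysipelatoclostridium). By unadjusted p below 0.05, 3 of the 10 variants were below, against 13.4% of all variants, and 2 of the 4 genera, Dubosiella and Erysipelatoclostridium, against 28.8% of genera. These calls depended on the processing. Without a filter on low counts, 5 members passed (Turicibacter variants 1 and 5 and the 3 Dubosiella variants), against 1.12% of 3217 variants, and at 10000 reads Dubosiella passed (adjusted p = 0.0342, edgeR's quasi-likelihood test), against 21.6% of 37 genera.

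Summed over the 10 variants, the median share of reads was 7.63% at pre-injury, 5.97% at 1 d, 2.89% at 2 d, 10.97% at 7 d and 16.8% at 28 d. The within-animal change in log2 percent was -1.16 ± 1.96 at 2 d (SD, n = 13, lower in 9 animals; exact permutation test with sign flips, two-sided, p = 0.0461, adjusted over the 4 times 0.185). It was -0.47 ± 2.68 at 1 d, -0.82 ± 2.89 at 7 d and 0.58 ± 1.66 at 28 d, with adjusted p of 0.607, 0.444 and 0.444 by the same exact test. Without animal 3 or animal 4 the value at 7 d was -0.41, and without animal 1 that at 28 d was 0.27. The spread between animals exceeded the mean change at all 4 times.

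Of the other named genera of the class Bacilli, Lactobacillus, a lactic acid producer of the mouse gut, had a median of 5.53% at pre-injury, 2.82% at 1 d, 10.9% at 2 d, 8.13% at 7 d and 7.76% at 28 d, and passed the test neither by time (adjusted p = 0.558) nor by animal (adjusted p = 0.571; edgeR's quasi-likelihood test). Anaeroplasma, a wall-less anaerobe, had medians of 0.343% to 0.627% and differed by animal (adjusted p = 0.000329) but did not pass by time (0.852). Staphylococcus, a genus of skin and mucosa, rose from a median of 0% at pre-injury to 0.0421% at 28 d (11 of 13 animals with reads, log2 fold change 6.20, adjusted p = 0.000197, edgeR's quasi-likelihood test). At 10000 reads per column Staphylococcus did not meet the minimum for testing and has no value. Enterococcus was found in 2 animals at pre-injury and in 9 at 2 d, with a log2 fold change of 3.26 that did not pass (adjusted p = 0.0781). Of these 4 genera, 1 passed at 28 d and it was higher.

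The ratio of Dubosiella to Turicibacter reads, by its construction, does not depend on the other bacteria in a column. The median was 15.8 Dubosiella reads per 100 Turicibacter reads at pre-injury, 21.5 at 1 d, 10.2 at 2 d, 32.9 at 7 d and 37.5 at 28 d. In animal 12 it went from 4.79 at pre-injury to 90.1 at 28 d, in animal 13 from 5.86 to 74.8, and in animal 6 from 49.3 to 582. In animals 7 and 9 it was lower at 28 d, at 12.3 against 30.8 and at 21.3 against 69.8.

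At 28 d the ratio was higher than at pre-injury in 11 of 13 animals, by 1.67 ± 2.10 on the log2 scale (SD; exact permutation test with sign flips, two-sided, p = 0.0171, adjusted over the 4 times 0.0684), which did not pass. At 1 d, 2 d and 7 d the change was -0.26 ± 2.24, -0.44 ± 2.27 and 0.85 ± 2.02 (the same exact test, adjusted p = 0.683, 0.666 and 0.307). The value at 2 d was -0.90 without animal 13, -0.225 without animal 5 and -0.13 with 5 reads added. Without animal 7, 8 or 9 the value at 28 d passed, at 1.92, 1.79 and 1.96 with adjusted p of 0.0371, 0.0449 and 0.0254 by the exact test, and over all alternatives the adjusted p ranged from 0.0254 to 0.153. Of the 11 animals higher at 28 d, animal 8 had only 8 Dubosiella reads at pre-injury and 5 at 28 d (13.3 and 15.6 per 100). At 10000 reads per column the ratio at 28 d was higher in 9 animals and lower in 3.

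**Figure D4:**
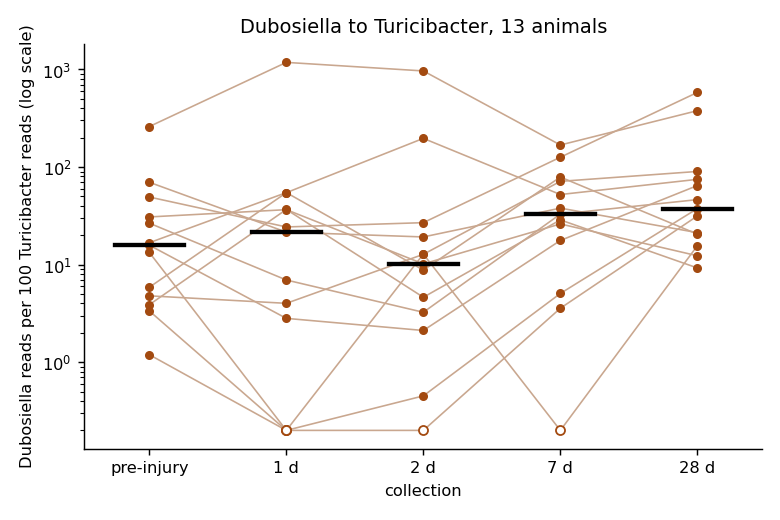
Dubosiella reads per 100 Turicibacter reads (log scale) in each of the 13 animals, joined by lines, with the median at each collection as a bar; open points had no Dubosiella reads and are drawn at the bottom. The median moves from 15.8 at pre-injury to 37.5 at 28 d, and the animals span 9.24 to 582 at 28 d.

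Within Dubosiella, the 3 variants kept a nearly fixed ratio. In the 31 columns with at least 1000 Dubosiella reads, variant 1 held 61.0% to 70.6% of the genus. Variant 2 stood at a median of 42.0 reads per 100 of variant 1 (34.1 to 50.4, coefficient of variation 10.5%) and variant 3 at 10.4 per 100 (7.06 to 13.4, 13.7%). All 3 variants were present in all 31 columns, although the level of the genus differed widely between them.

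Within Turicibacter the minor variants were not fixed. In the 44 columns with at least 1000 Turicibacter reads, variant 1 held 80.4% to 100% of the genus. Variant 2 held 0% to 9.85% (median 3.99%), variant 3 0% to 6.57% (3.44%), variant 4 0% to 5.85% (1.64%) and variant 5 0% to 4.16% (1.09%). The coefficient of variation of the reads per 100 of variant 1, in columns where the variant was detected, was 60.4%, 33.7%, 57.4% and 55.9% for variants 2 to 5, against the 10.5% and 13.7% of the Dubosiella variants.

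Absence of a minor Turicibacter variant has to be read with the caller in mind. The lowest count at which variants 2, 3, 4 and 5 were reported was 50, 58, 35 and 48 reads, which is 4.59%, 5.33%, 3.21% and 4.41% of the 1089 Turicibacter reads in the smallest of the 44 columns. A 0% in the 16 of these columns with fewer than 5000 Turicibacter reads, such as those of animal 1 at pre-injury or animal 5 at 1 d (variant 1 at 100%), may therefore stand for a share of a few percent, and neither the limit of 3 reads nor a counting interval applies to it. The values are given also for the 28 columns (10 animals) with at least 5000 reads, a minimum chosen after the values were seen. Variants 4 and 5 were also at 0 in a column with 32014 reads of variant 1.

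The shares of the minor variants ran in opposite directions. Over the 44 columns, the share of variant 2 went with those of variant 4 (Spearman's rho 0.84) and variant 5 (0.80), and variants 4 and 5 went together (0.91), whereas variant 3 ran against variants 2 (-0.84), 4 (-0.70) and 5 (-0.66). In the 28 columns with at least 5000 reads the values for variants 2 and 4, 2 and 5, and 4 and 5 were 0.97, 0.94 and 0.96, and those of variant 3 with variants 2, 4 and 5 were -0.94, -0.92 and -0.95. The variants' coefficients of variation there were 72.8%, 33.4%, 67.5% and 63.7%. The 44 columns come from 11 animals and the 28 from 10, and the shares of a genus sum to 100%, so the values describe these columns only. Variant 2 exceeded variant 3 in 24 columns and the reverse held in 19.

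The contrast between collections was clearest in animals 7 and 9, in which the genus was abundant throughout. In animal 7, variant 2 held 9.85% of Turicibacter reads at pre-injury, 9.61% at 1 d, 8.40% at 2 d, 4.02% at 7 d and 2.72% at 28 d. Its variant 3 held 0%, 0.939%, 1.24%, 3.65% and 4.24% at the same times. In animal 9, variant 2 held 9.69%, 9.43%, 9.79%, 4.11% and 2.84%, and variant 3 held 0%, 0%, 0%, 4.00% and 5.21%.

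Other animals had other mixtures. Animal 6 resembled the early collections of animals 7 and 9, with 7.53% of variant 2 and no variant 3 at 1 d, among 10322 Turicibacter reads. Animal 2 had variant 3 at all 5 collections (4.24% to 6.57%) and variant 2 at 3 of them, up to 2.00%. In animal 5, variant 5 was not detected in any column, including that of 7 d with 33871 Turicibacter reads. Animal 3 differed from animals 7 and 9 in direction. Its variant 2 share was 1.55% at pre-injury (95% Wilson interval 1.33% to 1.80%) and 3.33% at 28 d (3.02% to 3.66%), and its variant 3 share was 4.82% (4.43% to 5.24%) and 3.53% (3.21% to 3.88%). In animal 1, variant 3 was likewise lower at 28 d (3.36%, 3.05% to 3.70%) than at pre-injury (6.15%, 4.87% to 7.74%), while its variant 2 went from 0%, in a column of 1089 Turicibacter reads, to 3.59%. In animals 4 and 11 the intervals of both variants overlapped between these times. In columns with at least 5000 Turicibacter reads, variant 2 ranged over animals from 1.55% to 9.85% at pre-injury (SD 3.67 percentage points, n = 7) and from 0% to 5.18% at 28 d (SD 1.77, n = 8). Variant 3 was found in 5 of 7 such columns at pre-injury and in 8 of 8 at 28 d (2.24% to 6.57%). The columns of these 2 times come in part from different animals. Animal 11, with the 5.18% of variant 2 and the 2.24% of variant 3 at 28 d, had 2498 Turicibacter reads at pre-injury and is absent there.

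**Figure D5:**
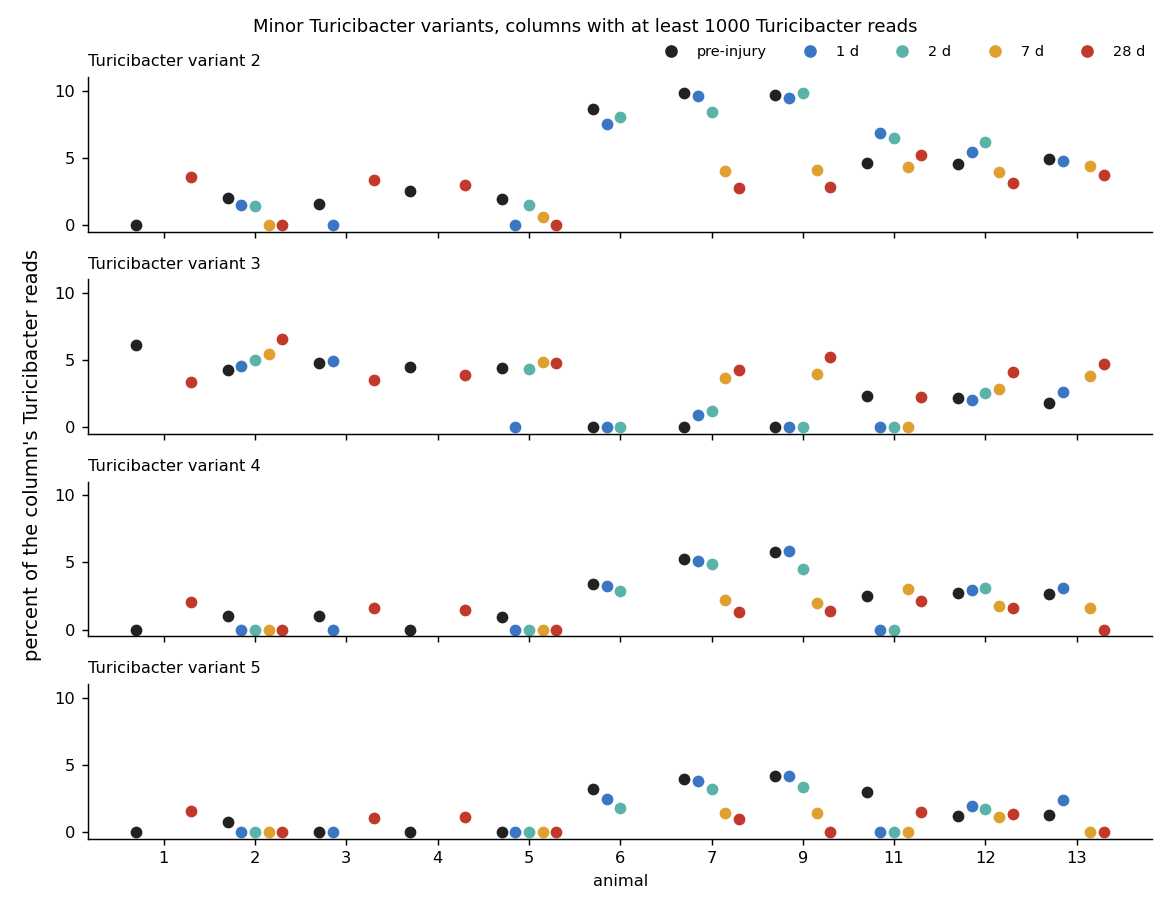
Share of each column's Turicibacter reads held by variants 2 to 5 (1 panel each), in the 44 columns with at least 1000 Turicibacter reads, by animal and coloured by collection. In animals 7 and 9 variant 2 is above 9% at pre-injury and below 3% at 28 d, and variant 3 goes from 0% to above 4%, and animal 2 holds variant 3 at 4.24% to 6.57% at every collection.

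Compared within animals that had at least 1000 Turicibacter reads at both times, variant 2 was lower at 7 d than at pre-injury in 7 of 7 animals, by 2.32 ± 2.38 percentage points (SD; mean 5.37% against 3.05%; exact permutation test with sign flips, two-sided, p = 0.0156, the smallest p that 7 animals allow). At the same time variant 1 was higher in 7 of 7 animals (by 3.89 ± 3.12, the same exact p), variant 3 was higher in 6 of 7 (by 1.37 ± 2.14, exact p = 0.141), and variants 4 and 5 were lower in 6 of 7 each (exact p = 0.0312 for both). Over the 20 comparisons of this kind the lowest adjusted p was 0.156, and none passed. The difference at 28 d was -1.41 ± 3.42 percentage points in 10 animals (lower in 6 and higher in 4, animal 1 with its 0% among the latter; exact test, adjusted p = 0.375). In animals with at least 5000 reads at both times, the difference of variant 2 was -3.06 ± 2.47 percentage points at 7 d (lower in 5 of 5, exact p = 0.0625, the smallest that 5 animals allow) and -2.62 ± 3.68 at 28 d (lower in 4 of 6, exact p = 0.188). At 7 d in the same 5 animals, variant 3 was higher in 5 and variant 4 lower in 5 (exact p = 0.0625 for both). Variant 5 was lower in 4 and higher in 0 (exact p = 0.125). Animal 11, with variants 3 and 5 at 0% among 1166 Turicibacter reads at 7 d, is not among these 5. These comparisons were added with the values in view.

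The genera whose levels were most like those of Turicibacter over the 65 columns were Dubosiella (Spearman's rho 0.78), Bifidobacterium (0.77) and Ruminococcus (0.42). For Dubosiella they were Turicibacter (0.78), Bifidobacterium (0.75) and Coriobacteriaceae UCG-002 (0.47). The lowest values were with Oscillibacter for Turicibacter (-0.53) and with Colidextribacter for Dubosiella (-0.69). The columns share animals, and the shares of a column sum to 100%, so these values are a description.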

How the data were processed

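Fecal DNA of 13 mice was sequenced over a region of the 16s rRNA gene on an Illumina MiSeq. The authors trimmed and filtered reads, joined pairs, inferred sequence variants with DADA2 (which also corrects sequencing errors, and can drop rare variants close to an abundant one), removed chimeras and assigned taxonomy with SILVA (release 138 per the record, with another release named in the paper). The deposited table holds read counts per variant and column, not normalized, and the deposited taxonomy names 434 variants, which held 98.4% of the reads used. Variants without taxonomy within 13 edits of a member, not counted here, held 75 reads near Turicibacter, 235 near Dubosiella, 20 near Merdibacter and 18 near Erysipelatoclostridium (4.49% of that genus's reads).

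Of 91 count columns, 26 were not used: 3 d and 14 d have 13 columns each for 12 samples. Columns were assigned to a collection time by name, and animals were numbered from 1 to 13 in the order of the numbers in the column names, which paired the columns. Columns of 1 animal deviated together (median correlation 0.35 over 130 pairs, over 0.1 in 110). Between animals at different times the median was -0.04 over 1560 pairs, over 0.1 in 286. Values were centred within each time, which by itself lowers the correlations between animals. No label says how the columns relate to the sham and CCI mice. The members, lists and rules for naming were chosen with earlier results of these data known.

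Counts were tested with edgeR 4.0.16 (quasi-likelihood, R 4.3.3) with column totals as library sizes and animal as a block, over 411 variants or 52 genera with at least 10 reads in at least 7 columns (10%), with Benjamini-Hochberg adjustment and a threshold of 0.05. On simulated data, 135 of 200 variants changed by 2 on the log2 scale at 28 d were recovered, with 4 false calls. The simulation had no differences between animals apart from depth and used the same dispersion for all variants. It therefore checks the fit and does not give its power in these data. Single values were tested by exact sign-flip permutation over animals (added constants 0.001% or 0.5 reads). Intervals are Wilson intervals at 95%. The SE beside an edgeR fold change is the value implied by the F statistic of its test, not a fitted standard error. Genera were named if they belong to the members or to the class Bacilli, or were the 3 most like a member. The lowest-ranked genera were added after the values were seen. Alternatives were TMM factors, DESeq2 1.42.0, limma 3.58.1 on centred log-ratios, no filter, no block, other constants, 10000 reads per column, named variants as library size, all Erysipelotrichales and leaving out each animal. Cages and batches could not be joined to columns and were not used.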

Additional observations from a re-analysis of the deposited data

How the results depend on the processing

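Leaving out each animal in turn, no member variant was called at any time, and the log2 fold changes against pre-injury ranged from -0.50 to 0.15 (1 d) and from -0.54 to 0.38 (7 d) for Turicibacter and from -0.38 to 0.15 (1 d) for Dubosiella. The summed members ranged from -0.81 to 0.13 at 1 d. The Dubosiella to Turicibacter ratio ranged from -0.55 to 0.0440 (1 d), -0.90 to -0.225 (2 d), 0.60 to 1.22 (7 d) and 1.42 to 1.96 (28 d). At 7 d its adjusted p was 0.0449 by the exact test without animal 8. Merdibacter ranged from -1.02 to 0.15 (7 d) and from -0.91 to 0.20 (28 d). The number of genera called ranged from 0 to 1, 0 to 2, 2 to 8 and 1 to 7 at 1, 2, 7 and 28 d, and of variants from 0 to 1, 0 to 2 and 1 to 15 at 2, 7 and 28 d (1 without animal 4).

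Some values changed sign. Turicibacter at 7 d was -0.0136 with TMM factors, -0.15 without the replicate block, -0.0228 at 10000 reads and -0.71 by limma on centred log-ratios. Dubosiella at 1 d was 0.0015 at 10000 reads. Merdibacter was 0.0739 by limma at 1 d, 0.10 without the replicate block and 0.0912 by DESeq2 at 7 d, and 0.00977 by DESeq2 at 28 d. The ratio at 1 d was 0.41 with 5 reads added and 0.27 at 10000 reads.

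Numbers of calls moved more. DESeq2 called 3, 9, 10 and 40 variants at 1, 2, 7 and 28 d, against 0, 0, 0 and 12 by edgeR, 1 and 6 genera at 2 d and 28 d against 0 and 1, and Dubosiella at 28 d (2.79). Without the replicate block, edgeR called 1, 1 and 6 variants at 2, 7 and 28 d and 2 genera at both 2 d and 7 d (0 and 6 with it), and 11 variants for any difference among times against 19. At 10000 reads, where 196 variants and 37 genera met the minimum for testing, it called 1 variant at 7 d, 4 variants and 0 genera at 28 d, and among times 9 variants and 8 genera (5 at full depth), including Dubosiella (1 of the genera described here). Among animals it then called 136 variants (235 at full depth) and both genera described here that were still tested (2, against 4 at full depth). Limma called 2 variants at 7 d and 2 and 7 genera at 2 d and 28 d. TMM factors gave 1 and 4 genera at 1 d and 28 d. Without a filter, 1 variant was called at 7 d, 13 variants including Dubosiella variant 1 (1 member) at 28 d, and among times 36 variants including 5 members. DESeq2 called 1, 1 and 4 members at 2, 7 and 28 d. The causes were not tested. The number of members that differed among animals was 7 to 10 over the alternatives (9 as reported, and 7 of the 8 tested at 10000 reads). Over all variants it was 136 to 249, with differing numbers tested. The calls of Erysipelatoclostridium at 2 d and of the ratio at 28 d that changed are given above. Exact sign-flip tests of Turicibacter and Dubosiella alone, added after the values were seen, gave adjusted p of 0.172 or more over 8 tests. Of 720 values under alternatives, 620 kept their direction and side of the threshold, or stayed within 1.5-fold for counts. Of the 720, 468 came from leaving out 1 animal. None of the fold changes and ratios among them passed as reported, so keeping the side meant still not passing. A count that stayed at 0 was also scored as kept. The 620 is therefore no measure of how firm the results are. Columns with few reads limit zeros, and no injury comparison could be made.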
